A study of Homo sapiens with 4 samples.

Results

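Metallothioneins are short cysteine-rich proteins that bind zinc, copper and cadmium, and they buffer free metal and oxidants in the cell. Their genes are transcribed when metal-responsive transcription factor 1 (MTF1) binds short metal response elements in their promoters, and MT2A is also a known glucocorticoid-responsive gene. MT1 and MT2 isoforms are found in many tissues, whereas MT3 and MT4 are restricted to few. The 7 listed genes were MT1A, MT1E, MT1F, MT1G, MT1M, MT1X and MT2A, out of the 60279 genes in the count tables and were found by matching their symbols to Ensembl identifiers. The rule itself uses no measured value, but the genes were proposed with earlier results of these data known.

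RNA sequencing had been performed on SUM159, a human cell line established from a triple-negative breast tumour (TNBC) and cultured with insulin and hydrocortisone, with 1 library per group: untreated cells, palbociclib, indisulam and the combination of both. Palbociclib blocks CDK4 and CDK6, kinases of the cell cycle, and indisulam is a sulfonamide that leads to degradation of the splicing factor RBM39. According to the sample labels, palbociclib was given at 0.5 µM and indisulam at 2 µM over 10 days, whereas the text on the series gives 2 µM, 3 µM and 16 h with technical duplicates. The treatment in the labels is the one of the senescence experiments in the study, and that in the series text is the one of its splicing experiment, for which the methods name Hisat2 rather than the TopHat2 of the processing notes. The label values are therefore used here, and whether duplicates were pooled is not stated. The hydrocortisone in the medium is shared by all 4 groups. Because there was 1 library per group, no difference had a replicate check and no p-value was computed. Brackets hold 95% intervals that cover counting error only, and in bulk RNA a change in the number of expressing cells and a change in RNA per cell cannot be told apart.

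The libraries held 12555908 to 16712174 reads in genes, so that 3 reads, the floor used for detection, correspond to 0.180 to 0.239 reads per 1000000 gene reads (CPM). VIM, a mesenchymal marker, had 2642 to 4598 CPM, while the epithelial markers EPCAM and CDH1 had at most 16 and 28 reads. ESR1 had at most 1.11 CPM and PGR at most 0.209 CPM, but ERBB2 transcript was present at 110 to 143 CPM. The leukocyte marker PTPRC had 11.1 to 17.5 CPM, and the endothelial marker PECAM1 had 15.2 CPM in untreated cells, 40.9 under palbociclib, 17.5 under indisulam and 20.4 under both drugs. Mitochondrially encoded genes took 4.90% to 7.33% of the gene reads, with the highest share in the palbociclib library. PECAM1 and the mitochondrial share were thus highest in the library with the lowest summed metallothionein level, although MT1X was lowest with indisulam. Scaling to totals without mitochondrial genes is compared further below. Any other part of these differences in the results was not tested.

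All 7 genes lie within a cluster of 16 metallothionein loci on chromosome 16 (56565073 to 56684196, 119 kb, GRCh38, positions from GENCODE release 44 counted from 1). In order along the chromosome, MT2A spans 56608584 to 56609497, MT1E 56625475 to 56627112, MT1M 56632659 to 56633981, MT1A 56638666 to 56640087, MT1F 56657731 to 56660698, MT1G 56666730 to 56668065 and MT1X 56682470 to 56684196. MT1G is on the minus strand and the others are on the plus strand, and each has 3 exons in its coding transcript. The start site of MT1X is 73.9 kb from that of MT2A. In the map of the cluster, the 4 genes with a measurable level are not adjacent, and loci at or close to 0 reads lie between them.

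**Figure D1:**
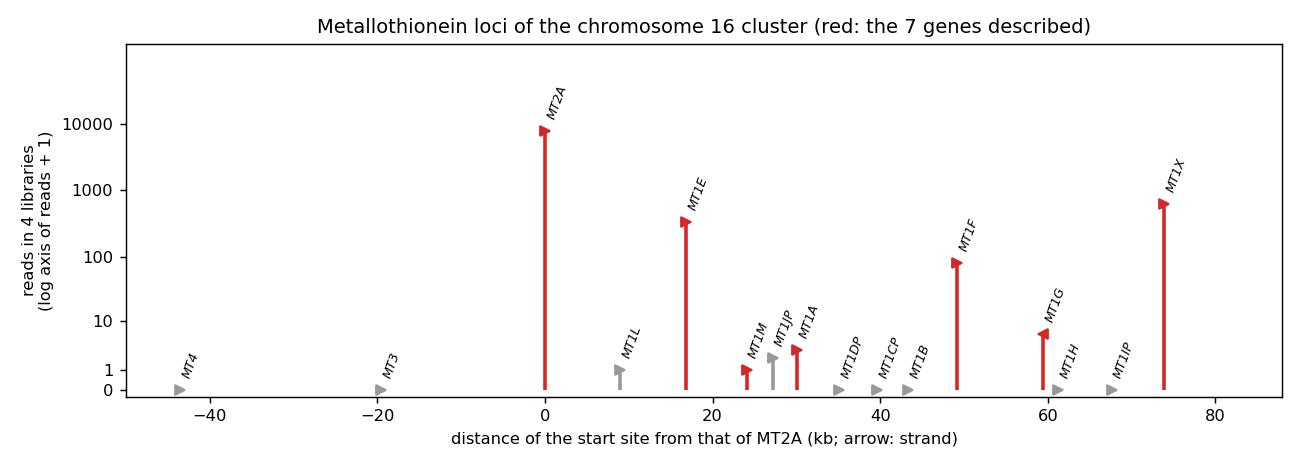
Reads summed over the 4 libraries (vertical axis, log axis of reads + 1) for each metallothionein locus of the chromosome 16 cluster, placed by the distance of its start site from that of MT2A in kb (horizontal axis), with the 7 described genes in red, other loci in grey and arrowheads showing the strand. MT2A, MT1X, MT1E and MT1F carry nearly all reads, and the neighbouring loci are at or close to 0.

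The coding sequences show how alike these genes are, which matters because reads that align to more than 1 place were not counted. The 4 members with a measurable level are shown, spliced from the GENCODE transcripts, 5′ to 3′ from the start to the stop codon. Capitals mark the letters that differ from MT2A.
MT2A: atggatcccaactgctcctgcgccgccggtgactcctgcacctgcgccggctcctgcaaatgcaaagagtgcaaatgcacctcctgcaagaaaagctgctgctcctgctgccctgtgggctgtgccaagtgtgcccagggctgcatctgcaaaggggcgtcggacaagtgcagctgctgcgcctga
MT1X: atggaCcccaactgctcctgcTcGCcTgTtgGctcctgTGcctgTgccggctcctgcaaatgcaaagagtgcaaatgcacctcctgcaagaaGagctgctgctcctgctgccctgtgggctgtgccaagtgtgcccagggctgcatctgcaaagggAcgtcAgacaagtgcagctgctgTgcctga
MT1E: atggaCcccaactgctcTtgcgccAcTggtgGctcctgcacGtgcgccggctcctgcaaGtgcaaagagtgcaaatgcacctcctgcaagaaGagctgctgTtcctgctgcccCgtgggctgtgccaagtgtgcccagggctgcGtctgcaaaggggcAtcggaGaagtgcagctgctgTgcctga
MT1F: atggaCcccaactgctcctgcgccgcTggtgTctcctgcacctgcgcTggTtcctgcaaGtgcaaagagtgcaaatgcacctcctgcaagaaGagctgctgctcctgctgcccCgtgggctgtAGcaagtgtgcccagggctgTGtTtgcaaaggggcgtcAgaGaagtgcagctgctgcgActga

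Each of these sequences is 186 bases long. MT1X and MT1E each differed from MT2A at 14 positions and MT1F at 16 positions, an identity of 92.5%, 92.5% and 91.4%. Among the 6 members with a coding sequence of this length, the closest pair was MT1A and MT1E (94.6%) and the most distant MT1F and MT1X (88.7%). MT1G has 189 bases and was not aligned.

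Despite this likeness, most read-length windows of the transcripts were unique. At a length of 65 bases, 332 of 337 windows of the MT2A transcript (98.5%) matched no other place in the genome and no other gene's transcript. The share was 97.7% for MT1E, 97.8% for MT1F, 99.7% for MT1A, 93.7% for MT1M and 90.2% for MT1G. MT1X had the lowest share, 88.8%, and its shared windows matched mostly MT1G and the pseudogene MT1XP1. A further 102 of its 340 windows lie in exons of ENSG00000259827, an overlapping noncoding gene on the same strand. This gene is in the count tables and was listed at 0 in every library, and reads in both genes would have been left out as ambiguous. At 50 bases the shares were 88.9% for MT2A, 79.7% for MT1X, 94.7% for MT1E and 93.9% for MT1F. These shares describe error-free reads, and the read length of the libraries is not given in the labels.

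MT2A was by far the most abundant member. It was counted with 2289 reads in untreated cells, 777 under palbociclib, 1974 under indisulam and 2802 under both drugs, and it took 81.7% to 91.0% of the reads of the 7 genes. In CPM these were 182 (175 to 190), 61.2 (57.0 to 65.7), 118 (113 to 123) and 195 (188 to 202.5). The palbociclib library was the lowest and indisulam intermediate, and untreated and combination were close to each other. Ranked among all genes by reads, MT2A was at place 944 in untreated cells, 3475 under palbociclib, 1645 under indisulam and 848 under both drugs.

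MT1X had 223, 122, 123 and 162 reads in the untreated, palbociclib, indisulam and combination libraries, which is 17.8 CPM (15.5 to 20.2), 9.61 (7.98 to 11.5), 7.36 (6.12 to 8.78) and 11.3 (9.61 to 13.2). The untreated library was above the other 3, and the intervals of palbociclib overlapped those of indisulam and of the combination. MT1E had 89, 47, 108 and 92 reads in the same order, or 7.09 CPM (5.69 to 8.72), 3.70 (2.72 to 4.92), 6.46 (5.30 to 7.80) and 6.41 (5.17 to 7.86). Only its palbociclib library stood apart, and the intervals of the other libraries overlapped. MT1F had 29, 5, 23 and 22 reads, or 2.31 CPM (1.55 to 3.32), 0.394 (0.128 to 0.919), 1.38 (0.872 to 2.07) and 1.53 (0.960 to 2.32). Palbociclib gave the lowest value here too, with an interval that just overlapped that of indisulam.

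The remaining members were at or under the floor in every library. MT1A had 2 reads in the untreated library and 1 with indisulam, MT1G had 2 reads in each library except palbociclib, where it had 0, and MT1M had 1 read in the untreated library. No difference was detectable at this depth for these 3 genes, and no fold is given. Of 14 other metallothionein loci in the tables, 3 had any read (MT1L, MT1JP and MT1XP1) and none exceeded 2 reads in a library. This includes MT3, the brain-enriched isoform, and MT4, the isoform of stratified epithelium, both listed at 0.

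**Figure D2:**
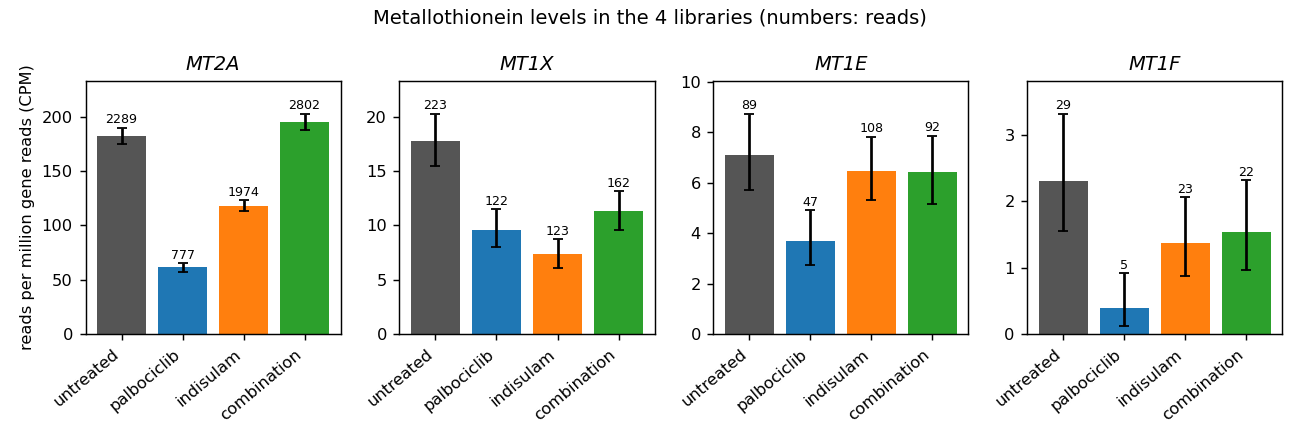
CPM (vertical axis, from 0, with a separate scale for each gene) of MT2A, MT1X, MT1E and MT1F in the 4 libraries (1 bar per library), with 95% Poisson intervals as error bars and the number of reads above each bar. MT2A falls from 182 CPM in untreated to 61.2 CPM with palbociclib and is at 195 CPM in the combination, and the palbociclib bar is also the lowest for MT1E and MT1F but not for MT1X.

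To compare levels between genes, CPM was divided by transcript length. In the untreated library this gave, per kb of merged exons, 199.5 CPM for MT2A, 10.3 for MT1X, 6.74 for MT1E and 1.25 for MT1F. Over the length of the coding transcript, a choice made after seeing the data, the levels were 455 CPM per kb for MT2A, 10.1 for MT1E and 5.44 for MT1F, and MT1X again lay between MT2A and MT1E. In the indisulam library the order of MT1X and MT1E depended on the length, with 4.26 and 6.14 CPM per kb of merged exons against 18.2 and 9.18 per kb of the coding transcript.

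The first comparison asked how palbociclib alone changed these genes. Log2 ratios were taken between counts scaled to library totals, after adding a pseudocount of 1, for the 14269 genes with a mean of at least 1 CPM. Calls required a 2-fold ratio or more and an interval on one side of 0. Of the 7 members, 4 passed this filter (MT2A, MT1X, MT1E and MT1F), MT1F with a mean of 1.40 CPM. With palbociclib against untreated, 2 of the 4 were called lower and none higher, against 10.8% of all tested genes called, 5.88% higher and 4.89% lower. MT2A had a log2 ratio of -1.57 (-1.69 to -1.46), which is 2.98-fold lower. MT1F had -2.36 (-3.62 to -1.09), from 5 reads with palbociclib. MT1E and MT1X had -0.92 (-1.43 to -0.42) and -0.88 (-1.20 to -0.56), close to the 2-fold limit but not called. The median of the 4 was -1.25, and the median of all tested genes was -0.02.

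In place of replicates, the spread between libraries was bounded from the departure from additivity, in which the log2 ratios of both single drugs to untreated are subtracted from that of the combination. Its robust spread over genes contains the variation of all 4 libraries as well as any true interaction. Divided by the square root of 2, it bounds the spread of a single ratio for a typical gene of its CPM range. A particular gene, MT2A included, can vary more between libraries, so multiples of this bound do not replace a replicate check. This bound was 0.28 on the log2 scale among the 2001 genes with at least 100 CPM, where MT2A lies, 0.37 from 5 to 20 CPM, the range of MT1X and MT1E, and 0.62 from 1 to 5 CPM, the range of MT1F. The palbociclib ratio was 5.62 times the bound for MT2A, 3.78 times for MT1F, 2.51 times for MT1E and 2.40 times for MT1X.

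Indisulam alone gave a smaller difference for MT2A than palbociclib did. For MT1X its ratio was further from 0, but the intervals for both drugs overlapped. Against untreated, 1 of the 4 tested members was called lower and none higher, against 15.1% of all tested genes called, 8.4% higher and 6.69% lower. MT1X had a log2 ratio of -1.26 (-1.58 to -0.95), 2.40-fold lower and 3.43 times the bound. MT2A had -0.63 (-0.71 to -0.54), which was 2.23 times the bound and not called. MT1F had -0.72 (-1.49 to 0.06) and MT1E -0.13 (-0.53 to 0.27), and both intervals included 0. The median of the 4 was -0.67, beside 0.06 for all tested genes.

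In the combination, MT2A and MT1E were close to untreated. None of the 4 tested members was called in either direction, against 23.5% of all tested genes called, 12.9% higher and 10.5% lower. MT2A had a log2 ratio of 0.10 (0.02 to 0.18), within the bound. MT1E had -0.14 (-0.56 to 0.27) and MT1F -0.57 (-1.35 to 0.21), both with intervals that included 0. MT1X remained below untreated without being called, at -0.65 (-0.94 to -0.36) and 1.77 times the bound. The median was -0.36, beside 0.05 for all tested genes.

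Relative to palbociclib alone, the combination had more metallothionein RNA. Here 2 of the 4 members were called higher and none lower, against 16.9% of all tested genes called, 9.57% higher and 7.38% lower. The log2 ratio was 1.67 (1.56 to 1.79) for MT2A, a 3.18-fold difference at 5.97 times the bound, and 1.79 (0.49 to 3.08) for MT1F. MT1E had 0.78 (0.28 to 1.28) and MT1X 0.23 (-0.11 to 0.57), neither called. Relative to indisulam alone, no member was called, against 8.19% of all tested genes called, 5.04% higher and 3.15% lower. MT2A had 0.72 (0.64 to 0.81), 1.65-fold higher and 2.58 times the bound, and MT1X had 0.61 (0.27 to 0.95). MT1F had 0.15 (-0.68 to 0.97) and MT1E -0.01 (-0.41 to 0.39).

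**Figure D3:**
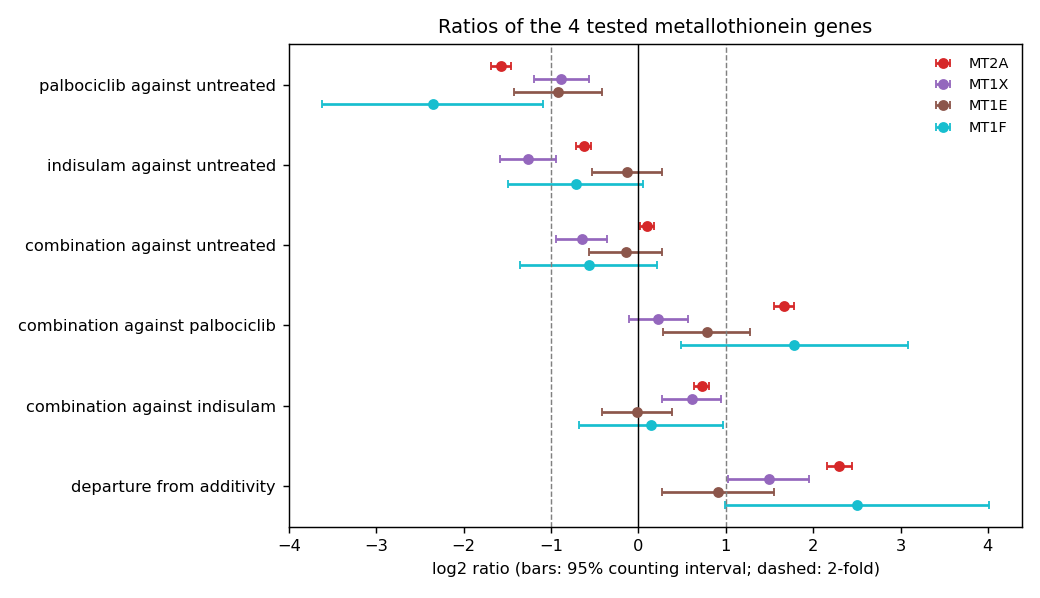
Log2 ratios (horizontal axis) of the 4 tested members in 5 comparisons and their departure from additivity (rows), with 95% counting intervals as bars, a solid line at 0 and dashed lines at a 2-fold ratio. All 4 points are below 0 for each single drug against untreated, and all 4 are above 0 for the combination against palbociclib and for the departure from additivity.

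Palbociclib thus had ratios of opposite sign for MT2A when it was given alone (-1.57) and when it was added to indisulam (0.72), 2 ratios that share no library. MT1X had the same signs at a smaller size (-0.88 and 0.61). Neither of its ratios was called, and that with indisulam was 1.66 times the bound. For MT1E and MT1F the ratio was below 0 without indisulam and had an interval that included 0 with it. The departure from additivity was called above 0 in 3 of the 4 members, against 7.77% of all tested genes called, 3.93% above and 3.83% below 0. It was 2.30 (2.15 to 2.44) for MT2A, 2.50 (0.99 to 4.01) for MT1F and 1.49 (1.03 to 1.96) for MT1X, and 0.91 (0.27 to 1.56) for MT1E, which was not called. The 4 libraries enter each of these values once, so that a deviation of any single library, for example a low palbociclib library, would move all of them.

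The departure of MT2A was 5.80 times the robust spread of the departures of genes at 100 CPM or more. For MT1X it was 2.87 times, for MT1F 2.84 times and for MT1E 1.75 times the spread in the CPM range of each. A departure at or above that of MT2A was found in 75 of the 14269 tested genes (0.526%), MT2A included. At or beyond MT2A both in the palbociclib ratio without indisulam and in the ratio with it were 13 genes (0.0911%), MT2A included. Summed over the 7 members, the reads gave 210 CPM in untreated cells, 74.9 under palbociclib, 133 under indisulam and 214 under both drugs. This sum follows MT2A. Without MT2A, the other members summed to 27.6, 13.7, 15.4 and 19.4 CPM, and their departure was 1.33 (0.98 to 1.69).

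**Figure D4:**
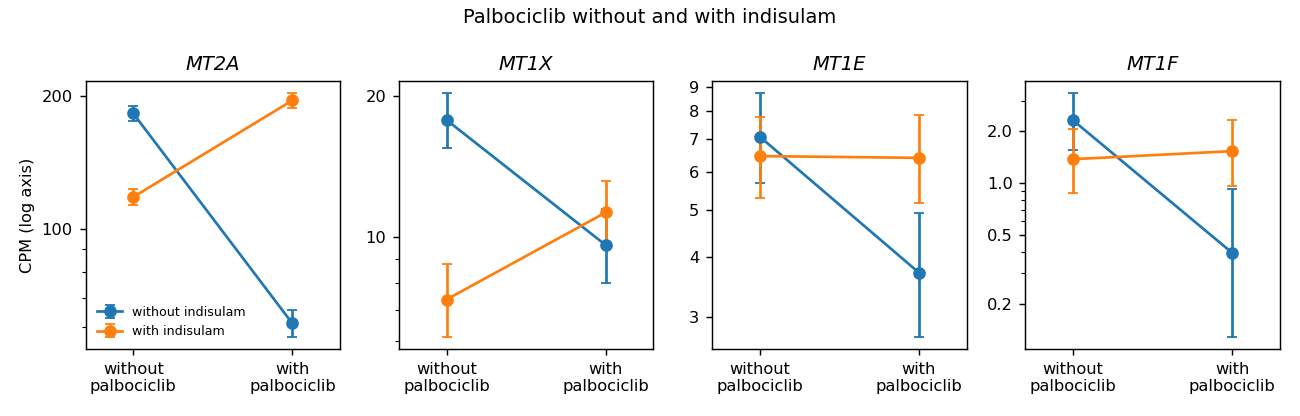
CPM on a log axis (vertical, a separate scale for each gene) without and with palbociclib (horizontal), in the libraries without indisulam (blue) and with indisulam (orange), with 95% Poisson intervals as error bars and 1 library per point. The lines cross for MT2A and MT1X, where the blue line descends and the orange line rises, while for MT1E and MT1F the blue line descends and the orange line is nearly flat.

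The shares within the family differed between libraries as well. For each MT1X read there were 10.3 MT2A reads in untreated cells, 6.37 under palbociclib, 16.0 under indisulam and 17.3 under both drugs. The ratio was thus lowest with palbociclib and higher in both libraries with indisulam. For MT1E the same ratio was 25.7, 16.5, 18.3 and 30.5. It was higher in untreated and combination than with either single drug. For MT1F the ratio went the other way with palbociclib, at 78.9, 155, 85.8 and 127 in the same order, with 5 MT1F reads under palbociclib. No interval was computed for these ratios.

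Promoter sequences were available for 2 of the 7 members, MT2A and MT1X, in the RefSeq promoter table (GRCh38.p14). MT1A, MT1E, MT1F, MT1G and MT1M had no entry. The 250 bases before the start are shown for both, MT2A as the member nearest to untreated in the combination and MT1X as the other entry in the table, a choice made with the values known. They lie on the plus strand at chr16:56608334-56608583 for MT2A and chr16:56682220-56682469 for MT1X. Capitals mark matches to the core of the metal response element, the site of MTF1, searched as TGCACNC and TGCGCNC on both strands with overlaps allowed.
MT2A: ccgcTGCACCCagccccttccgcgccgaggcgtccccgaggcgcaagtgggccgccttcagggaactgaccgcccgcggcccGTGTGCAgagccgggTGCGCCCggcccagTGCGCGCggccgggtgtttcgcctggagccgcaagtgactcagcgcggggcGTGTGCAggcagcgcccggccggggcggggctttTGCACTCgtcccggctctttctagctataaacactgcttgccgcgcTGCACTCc
MT1X: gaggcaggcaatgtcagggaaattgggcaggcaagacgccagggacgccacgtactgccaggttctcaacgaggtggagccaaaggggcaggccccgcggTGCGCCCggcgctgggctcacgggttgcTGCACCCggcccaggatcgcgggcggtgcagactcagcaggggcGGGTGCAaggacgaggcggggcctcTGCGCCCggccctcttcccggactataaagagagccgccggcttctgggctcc

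In the 300-base window of the table, which adds 50 bases after the start, MT2A had 8 core matches and MT1X had 4. Of 35116 promoters of this length, 29.6% had at least 1 match, 2.30% had at least 3 and 0.0199% had at least 8, while 0.601% had at least 4. MT1H had 8 matches, MT1B 3 and MT4 3, and all of them were listed at 0 reads in every library. The antioxidant response element core TGACNNNGC had 1 match in MT2A and 1 in MT1X, and 13.3% of promoters had at least 1. The glucocorticoid response element, searched on both strands as a palindromic consensus, had no match in either window and was present in 0.390% of promoters. Sequence outside the 300-base window was not searched. The search therefore cannot tell whether MT2A or MT1X has a glucocorticoid response element further upstream or elsewhere. Matches of letters are a description and not binding sites.

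Genes that act on metals were then read beside the family. MTF1, the transcription factor itself, had 22.1 CPM in untreated cells, 29.1 under palbociclib, 30.6 under indisulam and 32.9 under both drugs, and none of its ratios was called (0.40, 0.47 and 0.58 against untreated). SLC30A1, the zinc exporter of the plasma membrane and a known MTF1 target, had 31.2, 32.9, 44.3 and 34.7 CPM in the same order. Its log2 ratio was 0.07 (-0.13 to 0.27) with palbociclib, where MT2A had -1.57, and its departure from additivity was -0.42 (-0.68 to -0.17), opposite in sign to that of MT2A and not called.

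Of 30 listed genes of zinc and iron handling, 24 were tested. With palbociclib against untreated, 1 was called higher and 1 lower, beside 5.88% and 4.89% of all tested genes. With indisulam 4 were higher and none lower, beside 8.4% and 6.69%, and in the combination 7 were higher and 1 lower, beside 12.9% and 10.5%. None was called in its departure from additivity, beside 7.77% of all tested genes. SLC40A1, the iron exporter ferroportin, had 7, 25, 28 and 47 reads and a combination ratio of 2.41 (1.33 to 3.49) on the log2 scale. TFRC, the transferrin receptor for iron uptake, had 222, 261, 593 and 710 CPM and a ratio of 1.68 (1.62 to 1.74). SLC30A3, a zinc transporter of vesicles, was the member called lower, with 51, 15, 44 and 19 reads and -1.57 (-2.31 to -0.82). The transporters SLC30A6, SLC39A3, SLC39A6 and SLC39A8, named after their values were seen, were called higher in the combination. Their log2 ratios to untreated were 1.13, 1.07, 1.015 and 1.17. Among the 10 copper genes, all tested, 1 was called higher and 1 lower in the combination, beside 12.9% and 10.5% of all tested genes. SLC31A2 was higher at 1.37 (1.13 to 1.61), and CCS, the copper chaperone of superoxide dismutase, was lower at -1.25. The copper importer SLC31A1, named after its value was seen, was the 1 copper gene called in its departure from additivity, at 1.05. Over all tested genes, 3.93% were called above 0 there.

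The 12 glutathione and thiol redox genes were all tested, and their median log2 ratio to untreated was -0.47 for palbociclib, -0.36 for indisulam and -0.37 for both drugs. With palbociclib 1 was called lower, with indisulam 3 and in the combination 4, beside 4.89%, 6.69% and 10.5% of all tested genes, and none was called higher. HMOX1, the stress-inducible heme oxygenase, had 251 CPM in untreated cells, 90.9 under palbociclib, 50.8 under indisulam and 56.6 under both drugs. Its palbociclib ratio of -1.46 (-1.56 to -1.37) was near that of MT2A, but in the combination it stayed 2-fold or more below untreated, at -2.15 (-2.26 to -2.03). Its departure from additivity was called at 1.62 (1.45 to 1.79), as 1 of the 12, beside 7.77% of all tested genes. GSS, glutathione synthetase, had a ratio of -1.64 in the combination against untreated and a departure that was not called.

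Glucocorticoid genes were included because the medium of all groups holds hydrocortisone. The receptor gene NR3C1 had 77.0, 77.0, 97.7 and 93.5 CPM, and none of its ratios was called. Of 13 listed genes 12 were tested, with 1 called lower with palbociclib, beside 4.89% of all tested genes. With indisulam 1 was higher and 2 were lower, beside 8.4% and 6.69%. Under both drugs 2 were higher and 3 lower, beside 12.9% and 10.5%. The median log2 ratio of the 12 to untreated was -0.57 for palbociclib, 0.21 for indisulam and -0.47 for both drugs. TSC22D3, a glucocorticoid-induced leucine zipper gene, had 1618, 334.5, 386 and 116 CPM, and a ratio of -3.80 (-3.87 to -3.73) in the combination. FKBP5, a co-chaperone of the receptor, had 1186, 705, 426 and 310.5 CPM and a ratio of -1.93 (-1.98 to -1.88). Both were named for the size of their combination ratios and do not stand for the whole list. They were lowest in the combination library, where MT2A had 195 CPM against 182 in untreated cells, with overlapping intervals. HSD11B1, which regenerates active cortisol, was called higher with indisulam, at 1.45 (1.29 to 1.61), and again under both drugs, at 1.76 (1.60 to 1.92). None of the 12 was called in its departure from additivity, beside 7.77% of all tested genes.

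**Figure D5:**
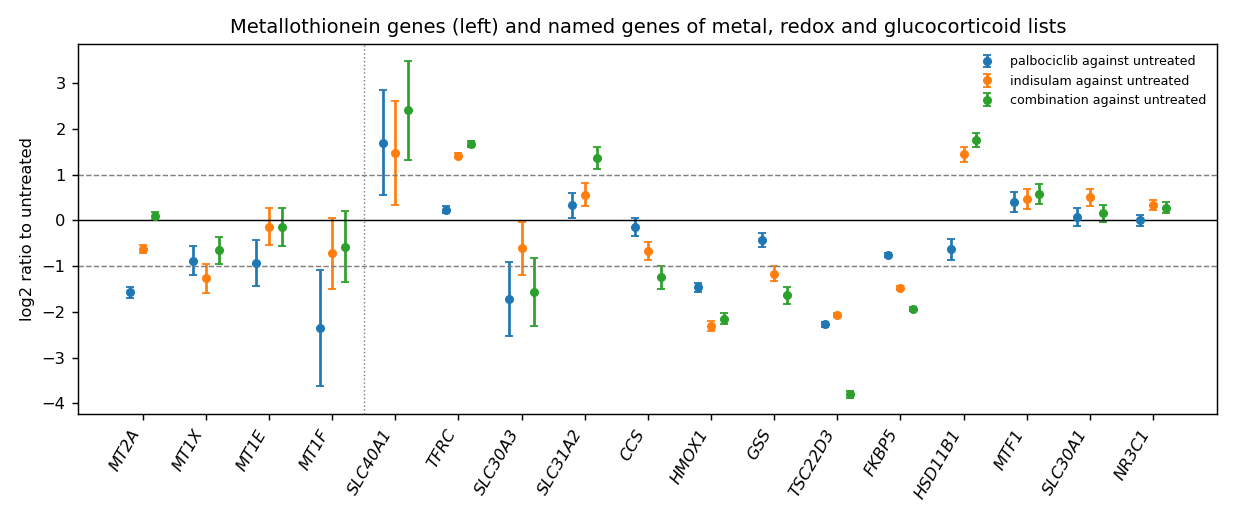
Log2 ratios to untreated (vertical axis) for palbociclib (blue), indisulam (orange) and the combination (green), with 95% counting intervals, for the 4 tested metallothionein genes (left of the dotted line) and the named genes of the metal, redox and glucocorticoid lists. The green point of MT2A is near 0 while its blue point is at -1.57, and for HMOX1, TSC22D3 and FKBP5 the green points lie at -1.93 or lower.

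The genes beside the cluster had smaller departures than MT2A. OGFOD1 and BBS2 on one side and NUP93 and HERPUD1 on the other are the nearest tested genes outside the family. Their log2 ratios with palbociclib against untreated were 0.24, -0.65, 0.02 and -0.48, and none of these was called. Their departures from additivity were 0.24, 0.17, 0.46 and 0.71, all uncalled, beside 2.30 for MT2A. BBS2, which overlaps MT4 on the opposite strand, was the only neighbour called in any of these comparisons, at -1.29 (-1.44 to -1.14) in the combination against untreated.

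Across all tested genes, those with the pattern nearest to the summed members were sought by the root mean square distance of their 3 log2 ratios to untreated. These ratios share the untreated library, and the likeness is a description over 4 libraries. The 5 nearest genes outside the family were EXPH5, PEAR1, SDC1, NUP62CL and SERPINB9, at distances of 0.15 to 0.24. EXPH5, NUP62CL and SERPINB9 had means of only 1.97, 2.89 and 3.21 CPM. At that level the bound on a single ratio was 0.62, and it was 0.37 at the level of PEAR1 and 0.26 at that of SDC1. All 5 distances lay below the bound for their gene, so the order is uncertain. SDC1, which encodes the cell surface proteoglycan syndecan-1, had 50.7 CPM in untreated cells, 23.5 under palbociclib, 30.5 under indisulam and 52.7 under both drugs. PEAR1 had 11.9, 4.65, 6.82 and 10.6 CPM. By the same distance MT2A ranked 1 among all tested genes, which follows from its share of the sum, MT1E ranked 89, MT1F 444 and MT1X 544. Apart from MT2A, no member was among the 5 genes nearest to the sum. KDM1B and ATP6AP1L lay nearest to MT1E, and HYKK and ADCY7 to MT1X, while EXPH5 and PEAR1 were nearest to MT2A as well.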

How the data were processed

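Gene counts of 4 SUM159 libraries were used. The authors deposited raw counts, one whole number of reads for each Ensembl gene, with no normalization. The submitters' processing notes name TopHat2 2.1, HTSeq and GRCh38. The annotation release, the strand setting and the pooling of technical duplicates are not given in the sources used here. Reads at more than 1 place or in more than 1 gene were tallied apart by the authors, and these tallies stayed out of the library totals (12555908 to 16712174 reads).

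Counts were divided by the gene total and multiplied by the mean total, and a pseudocount of 1 was added before log2 ratios were taken. Intervals (95%) and the floor of 3 reads cover counting error only, because PCR copies cannot be told from separate molecules here. Count models need replicates and were not run. TMM and upper-quartile factors came from edgeR 4.0.16 and median-of-ratios factors from DESeq2 1.42.0. The ratio calculation was tested on simulated counts with Poisson error only. That simulation held no variation between libraries, so it cannot show how the calls behave under such variation. The members and gene lists were chosen with earlier results of these data known. All 7 members are named, with every other metallothionein locus that had a read. Of each pathway list, up to 3 members called in the combination against untreated with the largest ratio are named, with MTF1, SLC30A1 and NR3C1 in every case, the 2 nearest tested genes on either side of the cluster, and the 5 genes nearest in pattern to the summed members and 2 to each member at 5 CPM or more. One gene that this rule names is not reported here. Windows of 65 bases (also 50 and 75) were taken from the transcripts, after the read length in the study's methods for this kind of experiment, and were searched as exact matches on both strands of hg38 and in GENCODE 44 transcripts.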

Additional observations from a re-analysis of the deposited data

Results flagged for a closer look

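The ratio of palbociclib changed sign with indisulam for MT2A and for MT1X, with counting intervals that excluded 0 on both sides. For MT2A it was -1.57 without and 0.72 with indisulam, a difference of 2.30 on the log2 scale. The indisulam ratio of MT2A was -0.63 without and 1.67 with palbociclib. Its difference of 2.30 is the same departure from additivity by arithmetic and not a second result. For MT1X the palbociclib ratio was -0.88 without and 0.61 with indisulam, a difference of 1.49. Neither MT1X ratio was called at 2-fold, and the ratio of 0.61 was 1.66 times the bound on a single ratio. With 1 library per group these differences were not tested against replicates.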

How the results depend on the processing

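No paired analysis was possible because each group has 1 library and the labels give no replicate numbers, and for the same reason no library could be left out. With TMM, upper-quartile or median-of-ratios factors, totals without mitochondrial genes, or a pseudocount of 0.5 or 5, the number of members called and the median log2 ratio of the members stayed within the limits set (1.5 times the count, the counting interval of the median) in all 5 comparisons and in the departure from additivity. At 1.5-fold, 4 members were called with palbociclib against untreated, 2 with indisulam and 1 with both, instead of 2, 1 and 0. In the combination against palbociclib 3 were called, against indisulam 2 and in the departure 4, instead of 2, 0 and 3. At this threshold 3538, 4484, 6064, 4684, 3163 and 2684 of the 14269 tested genes were called in the same results. At a mean of 5 CPM or more MT1F left the test, so that 1 member was called with palbociclib against untreated and 1 in the combination against palbociclib, instead of 2 each. In the departure 2 were called instead of 3. Of the 11376 genes at this level, 833, 1396 and 582 were called in these results. The median of the members then moved to -0.92, 0.78 and 1.49 for palbociclib against untreated, the combination against palbociclib and the departure. Without a filter, the median over all 7 members was -1.57, 0.78 and 1.49 for the same results, with 3 members at or under the floor. Each ratio of a single tested member was recomputed under 7 or 8 alternatives and stayed within its counting interval, except MT2A in the combination against untreated with TMM factors, at 0.01. The ratio of MT1E in the combination against indisulam lay between -0.03 and 0.02 and kept its sign under 6 of 8 alternatives. The genes called in either direction numbered 1537, 2152, 3350, 2418, 1168 and 1108 in the 5 comparisons (palbociclib, indisulam and the combination against untreated, the combination against palbociclib and against indisulam) and the departure. They numbered 833, 1212, 2104, 1396, 544 and 582 at 5 CPM or more, and without a filter 1754 in the combination against indisulam. Of the copper genes, 1 instead of 2 was called in the combination against palbociclib with TMM, upper-quartile or median-of-ratios factors. Levels per kb in untreated cells were higher over the coding transcript, at 455 CPM per kb for MT2A. Depth limits MT1F, with 5 reads in its lowest library, and leaves MT1A, MT1G and MT1M without a detectable difference.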

Other observations

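Reads that aligned to more than 1 place took 6.46% of all tallied reads in untreated cells, 6.84% under palbociclib and 6.53% in each of the other libraries. On chromosome 16, which holds the metallothionein cluster, these tallies were 37582, 35035, 52897 and 42341 reads, against 2635, 951, 2231 and 3080 reads counted for the 7 genes. The tallies are not split by gene. MT1XP1, a processed pseudogene on chromosome 1 with windows in common with MT1X, had 2, 1, 1 and 2 reads.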
